A study of Bos grunniens and Bos grunniens x Bos taurus with 12 samples.

Results

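The genes described are the meiotic cohesin subunits and the genes that attach telomeres to the nuclear envelope in meiosis, with the mitotic cohesin subunits *RAD21* and *SMC3* for contrast. They were chosen by gene symbol, and 8 of the 10 symbols looked for were found among the 20965 genes of the deposited tables. The 8 were *SMC1B* (ENSBGRG00000000470), *REC8* (ENSBGRG00000017034), *STAG3* (ENSBGRG00000017743), *RAD21* (ENSBGRG00000003952), *SMC3* (ENSBGRG00000017257), *TERB1* (ENSBGRG00000026906), *TERB2* (ENSBGRG00000010298) and *SUN1* (ENSBGRG00000025294). No row carried the symbol *RAD21L1*, the other meiotic kleisin, or *MAJIN*, the membrane anchor that joins TERB1 and TERB2, so neither was analysed here. Symbols are given for 13662 of the genes, and the tables give no positions.

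Ribo-seq, which sequences the mRNA fragments covered by translating ribosomes, was performed on testis of 4 groups with 3 libraries each. These were male yaks at the juvenile stage of 6 months, at puberty (18 months) and at sexual maturity (4 years), and cattle–yaks of 4 years, the offspring of Jersey cattle bulls and Gannan yak cows. No agent was given to any group. Whole testis was used, so that all cell types of the organ contribute. The animals came from the same cooperative, and the methods give castration as the source of the cattle–yak testes and euthanasia as that of the yak testes, while the labels name castration for all. In whole tissue, fewer cells of a type and fewer footprints per cell cannot be told apart.

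Cohesin is a ring of SMC proteins closed by a kleisin and bound by a STAG protein, and it holds sister chromatids together. Germ cells that enter meiosis replace mitotic subunits with SMC1B, the kleisins REC8 and RAD21L1, and STAG3, which build the chromosome axes on which homologs synapse. TERB1, TERB2 and MAJIN bind telomeres to the inner nuclear membrane, where SUN1 and the KASH protein KASH5 couple them to dynein outside the nucleus, so that the telomeres are moved and homologs can pair. Male cattle–yaks are sterile, and their germ cells rarely pass meiosis.

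Total counts on genes were 25816963 to 37167651 in the 6-month yak, 21309151 to 24542362 in the 18-month yak, 16304058 to 17862516 in the 4-year yak and 38437889 to 52616039 in the cattle–yak libraries. Library 2 of the 18-month yak stood apart from its group, and an animal further in puberty and a mislabelled sample cannot be told apart. It correlated at 0.9735 to 0.9752 with the 4-year yak libraries (Pearson, log2(FPKM + 1), across genes) and at 0.8762 and 0.8987 with the other 18-month libraries. The found markers of elongating spermatids summed to 6663 FPKM in it and to 1.84 and 13.1 FPKM in the other 18-month libraries. Tests that use the 18-month yak are therefore given with and without it. The 5 found Sertoli markers of 7 listed, which define the somatic cells of the tubule, summed to between 608 and 7577 FPKM over the 12 libraries, against at most 32.8 FPKM for the 5 endothelial markers. *INHA* made up most of the Sertoli sum in each library, at 494 to 7288 FPKM.

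The meiotic cohesin genes were lowest at 6 months, highest in the 4-year yak and intermediate in cattle–yak. *SMC1B*, the meiotic partner of SMC3 in the ring, had FPKM of 0.45, 2.02 and 0.86 in the 6-month yak, 3.03, 63.17 and 11.99 in the 18-month yak, 76.60, 79.10 and 101.58 in the 4-year yak, and 50.40, 24.00 and 26.67 in cattle–yak. All cattle–yak libraries lay below all 4-year yak libraries and above all 6-month libraries, whereas the 18-month libraries reached from near the 6-month level to above cattle–yak. By its group mean *SMC1B* stood above 33.1% of the detected genes at 6 months, 89.3% in the 4-year yak and 77.4% in cattle–yak.

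*STAG3*, the meiotic STAG subunit, gave the same order of groups. Its FPKM was 0.65, 0.92 and 0.34 at 6 months, 3.64, 48.74 and 17.89 at 18 months, 65.10, 79.19 and 74.13 in the 4-year yak, and 39.70, 24.64 and 24.25 in cattle–yak. Again cattle–yak fell between the 4-year and the 6-month yak without overlap. A further row without a symbol, ENSBGRG00000017880, is described in the tables as cohesin subunit SA-3, the protein that *STAG3* encodes, and footprints may be split between both rows. This row had 26.07, 18.84 and 24.38 FPKM in cattle–yak against 46.37, 23.74 and 68.82 in the 4-year yak, which overlap.

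*REC8*, the kleisin that is kept at centromeres until the second meiotic division, had a much lower footprint level per length than the other cohesin genes. Its FPKM was 0.15, 0.50 and 0.11 at 6 months, 0.97, 4.01 and 2.37 at 18 months, 4.57, 6.55 and 4.72 in the 4-year yak, and 3.26, 2.78 and 4.49 in cattle–yak. The cattle–yak and 4-year ranges nearly met, at 4.49 and 4.57 FPKM, so the order of these neighbours was not clear beyond the spread of their libraries.

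**Figure D1:**
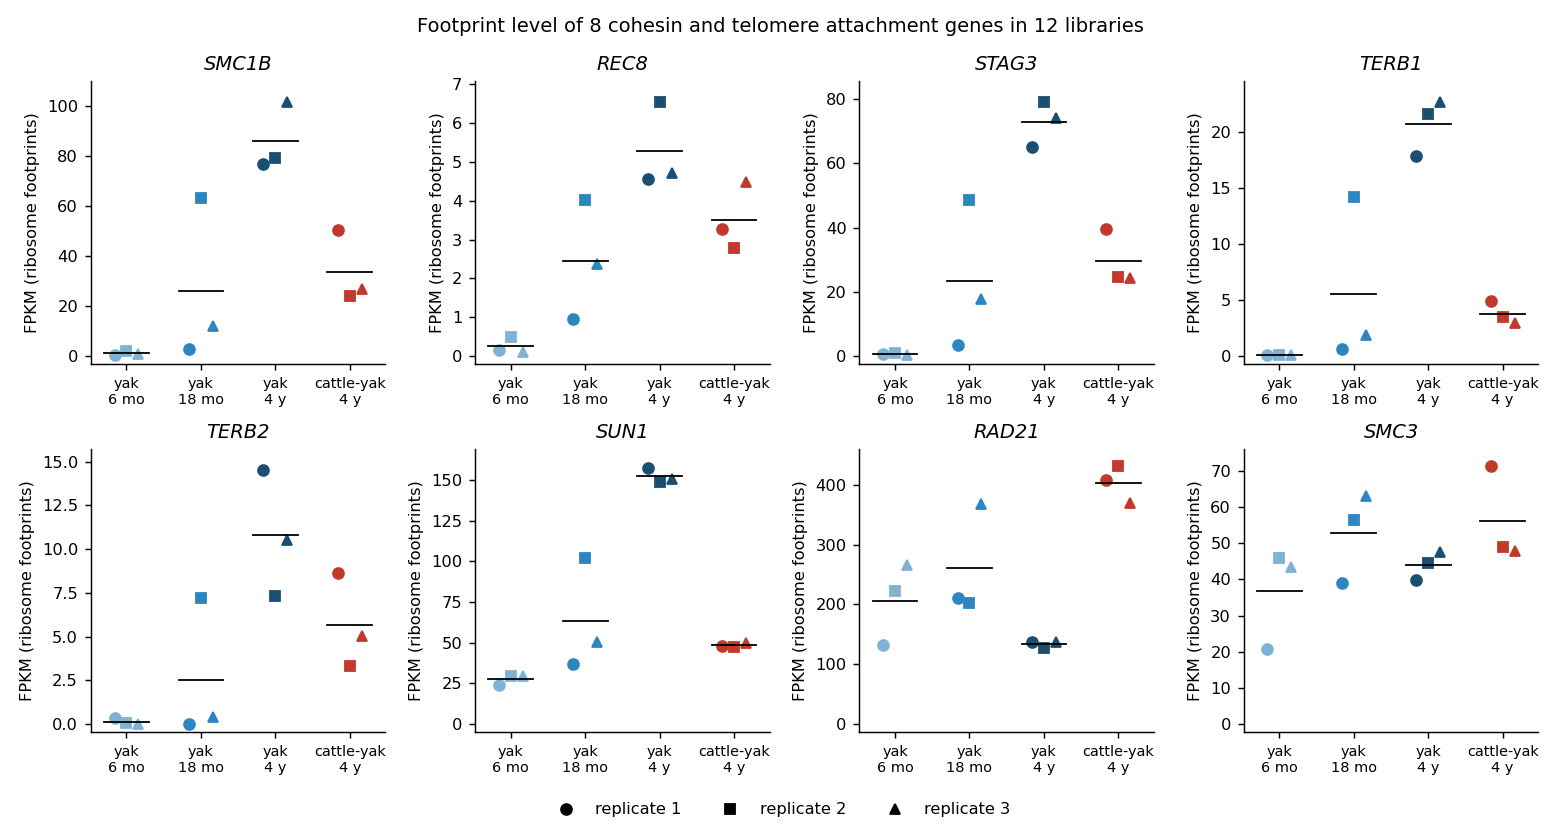
Footprint level (FPKM, linear axes from 0, each panel with its own scale) of the 8 genes in the 12 libraries, with replicate numbers as symbols and the group mean as a line. The 6 genes of meiosis peak in the 4-year yak, where *SMC1B* reaches 101.58 FPKM, *RAD21* is highest in cattle–yak, and library 2 of the 18-month yak lies near the 4-year yak in the genes of meiosis.

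Of the telomere attachment genes, *TERB1* and *TERB2* were by group mean also lowest at 6 months, highest in the 4-year yak and intermediate in cattle–yak. Their 6-month means were below those of the meiotic cohesin genes. *TERB1*, which binds the telomeric protein TERF1 and cohesin, had 0.10, 0.12 and 0.07 FPKM at 6 months, 0.64, 14.19 and 1.88 at 18 months, 17.88, 21.65 and 22.75 in the 4-year yak, and 4.90, 3.53 and 2.97 in cattle–yak. The highest cattle–yak library of *TERB1* was thus far below the lowest 4-year library. *TERB2*, which bridges TERB1 and MAJIN, had 0.33, 0.04 and 0.00 FPKM at 6 months, 0.00, 7.21 and 0.41 at 18 months, 14.54, 7.33 and 10.50 in the 4-year yak, and 8.64, 3.32 and 5.05 in cattle–yak. For *TERB2* the cattle–yak and 4-year libraries overlapped, since cattle–yak library 1 lay above a 4-year library. The values of *TERB2* rest on few counts, 6, 1 and 0 at 6 months and 180, 91 and 119 in the 4-year yak. The 6-month level of *TERB1*, from which its rise is measured, rests on 6, 10 and 5 counts.

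*SUN1*, a SUN domain protein of the inner nuclear membrane that somatic cells also use, was the only one of these 6 genes with a substantial level in all groups. Its FPKM was 24.15, 29.78 and 29.56 at 6 months, 37.06, 102.31 and 50.48 at 18 months, 157.49, 149.03 and 150.53 in the 4-year yak, and 48.19, 47.17 and 49.69 in cattle–yak. The 3 cattle–yak values were close to each other and lay between those of the 6-month and the 4-year yak without overlap.

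The mitotic subunits took another course. *RAD21*, the mitotic kleisin, had 131.68, 221.64 and 265.42 FPKM at 6 months, 210.67, 201.85 and 368.32 at 18 months, 137.65, 127.20 and 137.34 in the 4-year yak, and 407.61, 431.27 and 369.58 in cattle–yak. All cattle–yak libraries were above every yak library, but barely above the highest 18-month library, at 369.58 against 368.32 FPKM. The lowest levels were those of the 4-year yak, with 1 library of the 6-month yak within their range. *SMC3*, which both kinds of ring contain, had 20.76, 45.97 and 43.42 FPKM at 6 months, 39.07, 56.55 and 63.06 at 18 months, 39.81, 44.42 and 47.70 in the 4-year yak, and 71.31, 48.94 and 47.76 in cattle–yak. The *SMC3* libraries of the 3 yak groups overlapped, and those of cattle–yak were above the 6-month yak and barely above the 4-year yak, at 47.76 against 47.70 FPKM.

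Cattle–yak and yak of the same age were compared first, which asks what differs in the hybrid testis at maturity. Of the 8 genes tested, *SMC1B*, *STAG3*, *TERB1* and *SUN1* were lower in cattle–yak and *RAD21* was higher, where a call required that edgeR's adjusted p was under 0.05 and that the log2 fold change was 1 or more in either direction. Across all 16498 genes tested, 27% were called lower and 17.1% higher, so calls were common in this comparison. The median log2 fold change of the 8 genes was −1.10, against −0.00 over all genes.

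*TERB1* fell most, by 2.43 on the log2 scale (SE 0.220, 5.38-fold, edgeR's adjusted p = 3.01e-05). *SUN1* had a log2 fold change of −1.65 (SE 0.109, 3.13-fold lower, edgeR's adjusted p = 5.68e-06). *SMC1B* had a log2 fold change of −1.33 (SE 0.290, 2.52-fold lower, edgeR's adjusted p = 0.00388) and *STAG3* one of −1.28 (SE 0.216, 2.43-fold lower, edgeR's adjusted p = 0.000973). *SMC1B* and *STAG3* kept their fold but lost their call when all 12 libraries shared 1 fit, in which the spread includes that of the 18-month yak (edgeR's adjusted p = 0.193 and 0.117).

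*REC8* and *TERB2* did not pass. The log2 fold change of *REC8* was −0.58 with a 95% interval of −1.15 to −0.02 (edgeR's adjusted p = 0.0660). That of *TERB2* was −0.91 with an interval of −1.85 to 0.03 (edgeR's adjusted p = 0.0799), and without cattle–yak library 1 it became −1.38 and was called (edgeR's adjusted p = 0.0139). With *STAG3* and the row described as SA-3 summed, an alternative chosen after seeing the data, the log2 fold change was −1.26 (edgeR's adjusted p = 0.000843).

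*RAD21* was 3.03-fold higher in cattle–yak (log2 fold change 1.60, SE 0.125, edgeR's adjusted p = 1.35e-05). *SMC3*, at 0.37 on the log2 scale with a 95% interval of −0.06 to 0.79, was not called (edgeR's adjusted p = 0.111). The 4 genes called lower and *RAD21* kept their calls in each fit with 1 library left out.

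Markers of other germ cell stages and of some somatic cell types moved with these results. The 12 found spermatocyte markers of 14 listed include the synaptonemal complex genes *SYCP1*, *SYCP2* and *SYCP3*. They summed to 452 to 751 FPKM in cattle–yak, 1148 to 1317 in the 4-year yak and 134 to 198 in the 6-month yak. Without *HORMAD1*, which changed little and carried most of the 6-month sum, they summed to 271 to 579, 904 to 1101 and 10.5 to 22.8 FPKM, and without *PIWIL1* as well to 258 to 547, 608 to 748 and 10.2 to 22.6. The 5 found round spermatid markers of 7 listed summed to 4.24 to 8.71 FPKM in cattle–yak and 1109 to 1799 in the 4-year yak, and the 3 found elongating spermatid markers of 8 to 1.13 to 26.4 and 8152 to 11202. Of the latter, *TNP1* and *ODF1*, which encode a transition protein and a tail fibre protein, were at 0 in cattle–yak library 3. Spermatogonial markers, 6 found of 9, summed to 1444 to 1594 FPKM in cattle–yak against 633 to 925 in the 4-year yak. *UCHL1* and *DMRT1* carried most of the cattle–yak sum. *UCHL1*, *DMRT1*, *ID4* and *ZBTB16* were higher without overlap, while *KIT* and *GFRA1* overlapped. The marker sums of peritubular myoid, Leydig and Sertoli cells were also higher in cattle–yak, beside the higher *RAD21*. The 5 peritubular myoid markers summed to 780 to 1291 FPKM against 211 to 219, the 2 found Leydig markers of 6 listed to 580 to 1041 against 58.8 to 188, and the Sertoli markers to 1124 to 1381 against 608 to 838. Endothelial and macrophage sums were not higher. Endothelial sums were at most 14.1 FPKM in cattle–yak against 12.7 to 15.3 in the 4-year yak, with overlap. Macrophage sums also overlapped, at 41.2 to 52.1 FPKM against 47.2 to 67.4. Cattle–yak library 1 had the highest spermatocyte sum of its group and the highest level of 4 of the 6 genes of meiosis. The part of cell composition in the differences above was not tested.

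Against the 6-month yak, the juvenile stage, the question is how far the cattle–yak genes stood above their juvenile level. Footprints of meiotic genes were not wholly lacking at 6 months, where library 2 held 269 counts of *SMC1B* and 174 of *SYCP1*. *SMC1B*, *REC8*, *STAG3*, *TERB1* and *TERB2* were called higher in cattle–yak, 5 of 8, where 18.1% of the 15571 genes tested were called higher and 19.7% lower. Their log2 fold changes were 4.42 (SE 0.523) for *SMC1B*, 3.21 (SE 0.533) for *REC8*, 4.99 (SE 0.379) for *STAG3*, 4.69 (SE 0.369) for *TERB1* and 5.05 (SE 0.925) for *TERB2*. *SUN1*, at 0.26 with a 95% interval of 0.01 to 0.52 (edgeR's adjusted p = 0.0725), was not called. Neither was *RAD21*, at 0.45 with an interval of −0.04 to 0.94 (edgeR's adjusted p = 0.101), nor *SMC3*, at 0.10 with an interval of −0.51 to 0.71, whose sign turned when 6-month library 1 or cattle–yak library 1 was left out.

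The scaling of libraries matters in this comparison. With scaling by library size alone the median log2 fold change of all genes moved from −0.02 to 0.52, and the genes called changed from 2823 higher and 3067 lower to 4867 higher and 1875 lower. The same 5 of the 8 genes were called with that scaling, and the log2 fold changes of *RAD21* and *SUN1* became 0.97 and 0.80. On the deposited FPKM scale, limma called *RAD21* higher, at 1.02 on log2(FPKM + 1) (limma's adjusted p = 0.00663).

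The 4-year and the 6-month yak were compared as well, a comparison added after the spread of the 18-month libraries was seen. It gives the course of maturation in the yak itself. The 6 genes of meiosis were all called higher, where 31% of the 16133 genes tested were called higher and 24.7% lower. *TERB1* rose by 7.10 on the log2 scale (SE 0.248), *STAG3* by 6.25 (SE 0.338), *TERB2* by 5.94 (SE 0.822), *SMC1B* by 5.74 (SE 0.469), *REC8* by 3.76 (SE 0.514) and *SUN1* by 1.89 (SE 0.142). The median over all genes was 0.08, and it was 0.64 with library size alone, which gave 6596 genes higher and 2493 lower in place of 5009 and 3985. Sertoli and Leydig markers moved the other way between these ages. Sertoli markers summed to 6129 to 7577 FPKM at 6 months and 608 to 838 in the 4-year yak. Leydig markers summed to 1585 to 2506 and 58.8 to 188. *INHA* carried most of the Sertoli sum. *SOX9*, *GATA4* and *FSHR* were also lower in the 4-year yak without overlap, while *WT1* overlapped. Endothelial sums were lower too, at 12.7 to 15.3 FPKM against 24.6 to 32.8 at 6 months. Peritubular myoid sums, at 141 to 242 FPKM and 211 to 219, and macrophage sums, at 48.9 to 60.3 and 47.2 to 67.4, overlapped. The part of these cell types in the changes was not tested.

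*RAD21* had a log2 fold change of −1.17 between these ages (SE 0.217, edgeR's adjusted p = 0.00110) and was called lower. The call was lost with library size alone, where it was −0.62, with limma on log2(FPKM + 1), where it was −0.56, and without 6-month library 3, where it was −0.98. *SMC3* was at −0.28 (edgeR's adjusted p = 0.297), and its sign turned with library size alone, to 0.26, and with limma on log2(FPKM + 1), to 0.33. The 4-year yak is the reference of the first comparison and the 6-month yak that of the 2 others, so the 3 comparisons share libraries.

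**Figure D2:**
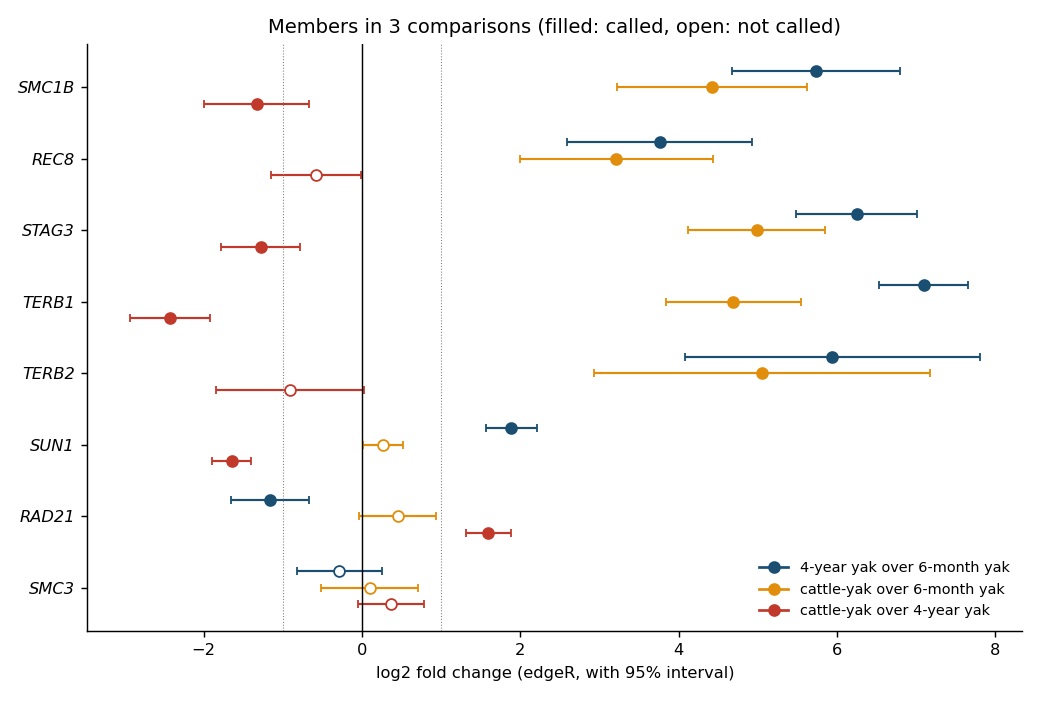
Log2 fold change with its 95% interval (edgeR) of the 8 genes in 3 comparisons that share libraries, where filled points passed the thresholds and dotted lines mark a log2 fold change of 1 in either direction. *TERB1* shows the largest rise in the yak (7.10) and the largest fall in cattle–yak (−2.43), and the cattle–yak over 6-month values of *SUN1*, *RAD21* and *SMC3* lie near 0.

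Meiotic genes were also set against related genes that mitotic and somatic cells use, as ratios of FPKM within each library, which do not depend on the scaling of the library. In whole tissue such a ratio also follows the mix of cell types. SMC3 serves here as a partner of SMC1B in the ring. The ratio of *SMC1B* to *SMC3* was 0.0285 ± 0.0134 (SD, n = 3) at 6 months, 0.462 ± 0.570 at 18 months, 1.94 ± 0.175 in the 4-year yak and 0.585 ± 0.111 in cattle–yak. *SMC1B* thus exceeded *SMC3* in all 4-year libraries and in no cattle–yak library. In the 18-month yak the ratio was 1.12 in library 2 and at most 0.190 in the others. Over the 4 groups the log2 ratio differed (exact permutation test of F, all 369600 arrangements of the libraries, p = 0.00149, adjusted p = 0.00199 over 4 ratios). Without 18-month library 2 the adjusted p of this exact test was 0.00013.

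*STAG3* made up 61.8% to 69.2% of the summed FPKM of *STAG1*, *STAG2* and *STAG3* in the 4-year yak, 30.3% to 39.7% in cattle–yak and 0.544% to 1.59% at 6 months. In the 18-month yak it made up 6.77%, 48.0% and 25.2%. The log2 ratio of *STAG3* to the sum of *STAG1* and *STAG2*, which serve mitotic rings, differed over the 4 groups (exact permutation test, p = 0.000714, adjusted p = 0.00143, and 0.00013 without 18-month library 2). Both sides of the ratio moved. *STAG2* was 2.40-fold higher in cattle–yak than in the 4-year yak (31.68, 27.55 and 28.90 against 12.31, 12.03 and 12.70 FPKM, edgeR's adjusted p = 3.29e-05), whereas *STAG1* was at 28.2 ± 1.15 and 26.4 ± 2.84 FPKM (SD, n = 3, edgeR's adjusted p = 0.534).

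*REC8* was a small part of the kleisin footprints in every library. Its share of the summed FPKM of *REC8* and *RAD21* was 0.0414% to 0.225% at 6 months, 3.21% to 4.90% in the 4-year yak and 0.641% to 1.2% in cattle–yak. Libraries of cattle–yak and 4-year yak did not overlap in this share, although their *REC8* levels nearly met, since *RAD21* was higher in cattle–yak. The 4-group test of the log2 ratio gave p = 0.000584 (exact permutation test, adjusted p = 0.00143, and 0.000433 without 18-month library 2). A further kleisin, *RAD21L1*, is not part of this share.

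Among the SUN proteins, *SUN1* made up 63.1% to 71.6% of the summed FPKM of *SUN1* and *SUN2* in the 4-year yak, 24.3% to 27.4% in cattle–yak and 15.1% to 16.8% at 6 months. The log2 ratio differed over the groups (exact permutation test, p = 0.00455, adjusted p = 0.00455, and 0.00169 without 18-month library 2). *SUN2*, the SUN protein of the same membrane that somatic cells use widely, had 138 ± 9.63 FPKM in cattle–yak and 76.7 ± 14.8 in the 4-year yak (SD, n = 3), a log2 fold change of 0.86 that passed the p (edgeR's adjusted p = 0.00189) and not the fold. Beside it, *TERB1* to *TERB2* was 0.740 ± 0.281 in cattle–yak and 2.12 ± 0.863 in the 4-year yak (SD, n = 3), a log2 difference of −1.49.

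Between any 2 groups of 3 libraries the exact permutation test cannot go below p = 0.1. Cattle–yak and 4-year yak reached this p in all 5 of these ratios, with no overlap of libraries. The log2 ratio in cattle–yak minus that in the 4-year yak was −1.75 for *SMC1B* to *SMC3*, −2.18 for *REC8* to *RAD21*, −1.91 for *STAG3* to *STAG1* plus *STAG2* and −2.52 for *SUN1* to *SUN2*. The ratio of *SMC1B* to *SMC1A*, its direct mitotic counterpart, could not be formed, since no row had the symbol *SMC1A*.

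**Figure D3:**
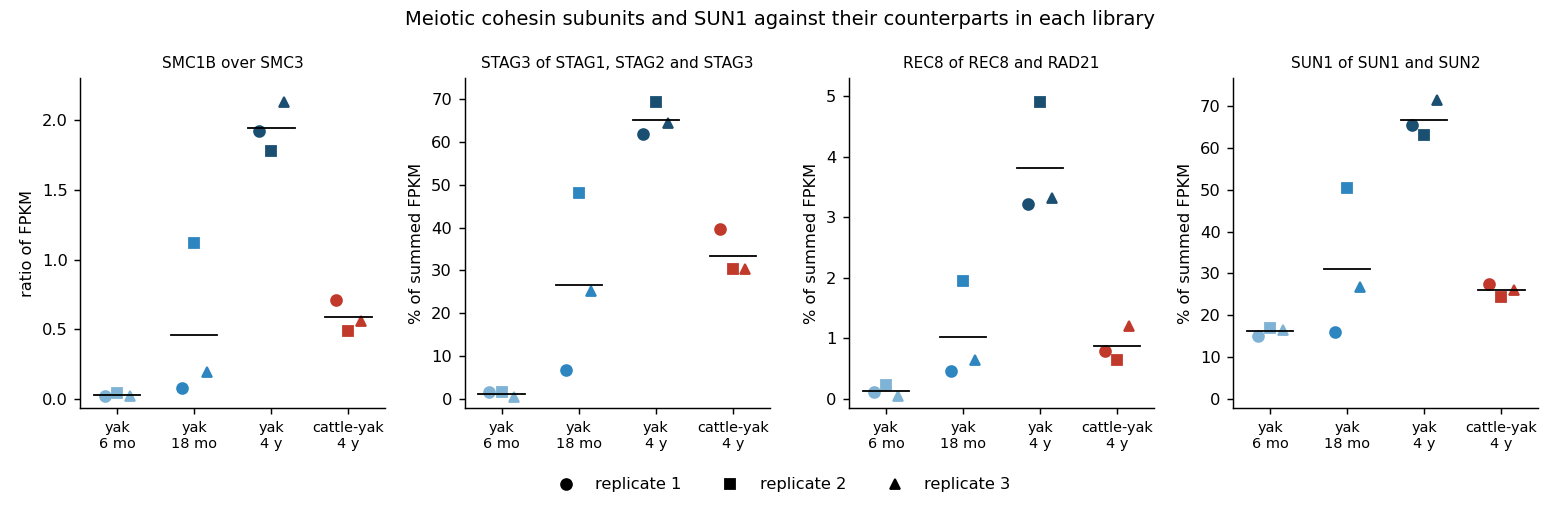
Ratio of *SMC1B* to *SMC3* and shares of *STAG3*, *REC8* and *SUN1* in the summed FPKM of each with its counterparts, in the 12 libraries (linear axes from 0, lines are group means). The 4-year yak is highest in each panel, as with *STAG3* at 61.8% to 69.2%, and the 3 cattle–yak libraries lie below it and above the 6-month yak.

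The 8 genes were also set against *SYCP1*, *SYCP2* and *SYCP3*, proteins of the synaptonemal complex and axis that spermatocytes make. *SUN1*, *RAD21* and *SMC3* are not limited to these cells. Their means at 6 months were 27.8, 206 and 36.7 FPKM, where the means of the reference genes were 0.0767 to 1.15. The relative levels of these genes are therefore not differences within spermatocytes. *SYCP3* had 113 ± 35.3 FPKM in cattle–yak and 69.9 ± 9.47 in the 4-year yak, *SYCP1* 19.3 ± 9.34 and 27.1 ± 4.21, and *SYCP2* 11.8 ± 7.67 and 29.3 ± 4.45 (SD, n = 3). The 3 reference genes thus differed among themselves: the log2 fold change was 0.70 for *SYCP3* (edgeR's adjusted p = 0.0303) and −0.47 for *SYCP1* (edgeR's adjusted p = 0.242), neither called, and −1.29 for *SYCP2*, called lower (edgeR's adjusted p = 0.0223).

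Relative to the mean log2(FPKM + 0.1) of these 3 genes, the cattle–yak level differed from that of the 4-year yak by −1.97 for *TERB1*, −1.18 for *SUN1*, −0.94 for *SMC1B*, −0.86 for *STAG3* and −0.49 for *TERB2*. In these 5 genes the groups did not overlap (exact permutation test, p = 0.1, the smallest possible). *REC8* differed by −0.11 with overlap (exact permutation test, p = 0.9), and *SMC3* and *RAD21* were higher by 0.80 and 2.06. The choice of reference matters, since further axis and synaptonemal complex genes were lower in cattle–yak to unlike degrees. *SYCE1*, of the central element of the synaptonemal complex, had 29.64, 19.35 and 22.46 FPKM in cattle–yak against 111.99, 98.60 and 118.13 in the 4-year yak, and *HORMAD2*, of unsynapsed axes, 28.37, 12.43 and 13.88 against 83.76, 61.05 and 98.59. *SYCE2*, at 126.33, 67.96 and 88.17 against 181.47, 149.43 and 176.96, and *TEX12*, at 46.45, 28.71 and 32.86 against 80.32, 56.64 and 79.19, were lower by less. *HORMAD1* changed little, at 171.96, 181.17 and 166.02 against 189.05, 244.46 and 216.27.

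Relative to the mean of the 8 found axis and synaptonemal complex genes of the spermatocyte list, an alternative chosen after seeing the data, the difference was −1.43 for *TERB1*, −0.64 for *SUN1*, −0.40 for *SMC1B* and −0.32 for *STAG3*. It was 0.04 for *TERB2* and 0.43 for *REC8*, where the sign turned, and 1.34 and 2.60 for *SMC3* and *RAD21*. The groups did not overlap in *TERB1*, *SUN1*, *SMC1B*, *SMC3* and *RAD21* (exact permutation test, p = 0.1, the smallest possible), and they overlapped in *STAG3*, *TERB2* and *REC8*. *TERB1* was lower in cattle–yak beside either reference.

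Over all 4 groups the relative level differed in 6 of 8 genes after adjustment (exact permutation test), the exceptions being *STAG3* (adjusted p = 0.184) and *TERB2* (adjusted p = 0.176). Without 18-month library 2, 7 of 8 passed, with *TERB2* at an adjusted p of 0.0361 and *STAG3* at 0.207 (exact permutation test). With the 8 reference genes *STAG3* passed (adjusted p = 0.00862) and *REC8* did not (adjusted p = 0.203). For *SUN1*, *RAD21* and *SMC3* (each adjusted p = 0.00381) the relative level fell with age in the yak, from 5.72 at 6 months to 2.01 at 4 years in the case of *SUN1*. Cattle–yak also entered this test. It was lowest in *SUN1*, at 0.83, and above the 4-year yak in *RAD21* (3.88 against 1.82) and *SMC3* (1.01 against 0.21). The reference genes were low at 6 months, such as *SYCP3* at 0.51 to 1.84 FPKM. The results for *SMC1B*, *REC8* and *TERB1* (adjusted p = 0.0134, 0.0432 and 0.0296) were each lost without some single library: those of *SMC1B* and *TERB1* without cattle–yak library 1 or 3, that of *TERB1* also without 4-year library 2 or 3, and that of *REC8* in 9 of 12 such repeats.

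**Figure D4:**
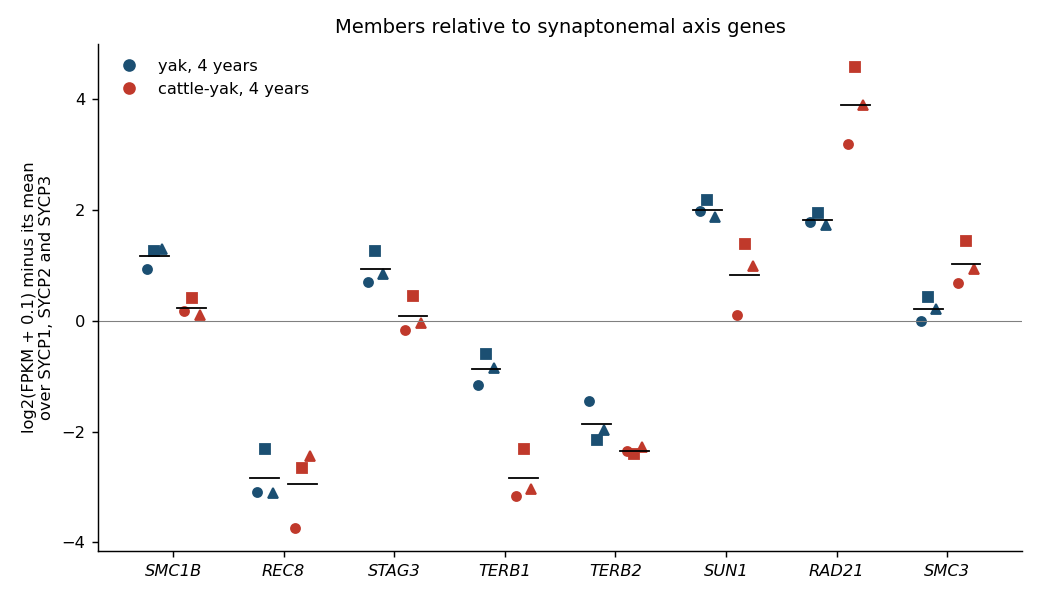
Log2(FPKM + 0.1) of the 8 genes minus its mean over *SYCP1*, *SYCP2* and *SYCP3* in the 3 libraries of the 4-year yak and of cattle–yak, with replicate symbols as in the other plots and lines at the means. *TERB1* is 1.97 lower and *RAD21* 2.06 higher in cattle–yak, and the *REC8* libraries of both groups overlap.

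Of 42 further genes of the same pathways, 33 had a row, 16 on the side of cohesin and 17 for the nuclear envelope and telomere. The 16 are regulators of loading, release, protection and cleavage, and also the subunits *STAG1* and *STAG2* and *SMC6*, which belongs to another SMC complex. In cattle–yak against the 4-year yak, 8 of the 16 genes on the side of cohesin were called lower, *SMC6* among them, and 1 higher, *STAG2*, and their median log2 fold change was −0.92. Of the 17 envelope and telomere genes, 2 were called lower and 2 higher, with a median of −0.18. Over all 33, 30.3% were called lower and 9.09% higher, beside 27% and 17.1% of all genes, so the share called lower was near that of all genes.

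The 3 lowest were *MEIKIN*, *BUB1* and *ESPL1*. *MEIKIN*, which protects REC8 at meiotic centromeres, had 1.80, 1.42 and 1.07 FPKM in cattle–yak and 24.89, 23.82 and 27.02 in the 4-year yak, a log2 fold change of −4.11 (SE 0.235, edgeR's adjusted p = 2.96e-06). *BUB1*, the kinase that recruits shugoshin to centromeres, had a log2 fold change of −2.96 (SE 0.194, edgeR's adjusted p = 5.53e-06). *ESPL1*, the separase that cuts the kleisin, had one of −2.40 (SE 0.178, edgeR's adjusted p = 1.03e-05).

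The 3 highest were *LMNA*, the A-type lamin (2.33, SE 0.122), *STAG2* (1.26, SE 0.116) and *TERF2IP*, a protein of the telomere-binding shelterin complex (1.19, SE 0.123). *LMNA* had 67.94, 64.60 and 64.36 FPKM in cattle–yak and 14.24, 15.45 and 13.07 in the 4-year yak. *CCDC155*, the name under which KASH5 is listed, had 36.47, 20.48 and 24.54 FPKM in cattle–yak and 72.01, 70.61 and 91.39 in the 4-year yak. Its log2 fold change was −1.50 (SE 0.232, edgeR's adjusted p = 0.000618), so *SUN1* and the KASH gene were both lower. *SUN2* was higher in cattle–yak, at a mean of 138 FPKM against 76.7 in the 4-year yak. *TERF1*, the telomere protein that TERB1 binds, had a log2 fold change of −0.26 (edgeR's adjusted p = 0.110).

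**Figure D5:**
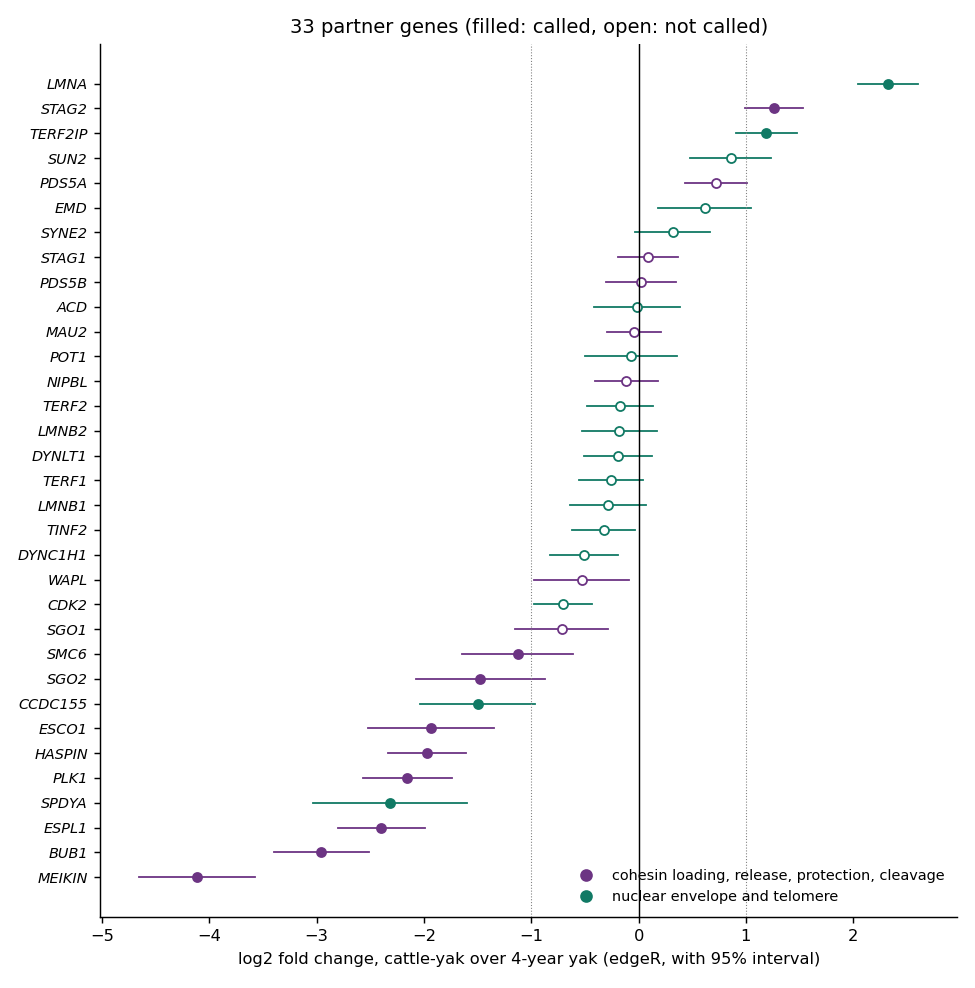
Log2 fold change with its 95% interval (edgeR) of the 33 further genes in cattle–yak over the 4-year yak, coloured by list, with filled points for genes that passed the thresholds. *MEIKIN* (−4.11) and *BUB1* (−2.96) are lowest and *LMNA* (2.33) is highest.

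Against the 6-month yak, 11 of the 33 (33.3%) were called higher in cattle–yak and 1 (3.03%) lower, beside 18.1% and 19.7% of all genes. Without 6-month library 1 these were 6 and 2. Highest were *SPDYA*, the activator of CDK2 at meiotic telomeres (log2 fold change 6.43, SE 0.514), *MEIKIN* (3.16, SE 0.548) and *HASPIN*, a kinase of centromeric histone H3 (2.45, SE 0.273), and *LMNB1*, a B-type lamin, was lower (−2.00, SE 0.317). In the 4-year over the 6-month yak, 13 (39.4%) were called higher and 6 (18.2%) lower, beside 31% and 24.7% of all genes, and the same 3 genes rose most, *SPDYA* by 8.68, *MEIKIN* by 7.22 and *HASPIN* by 4.40. *LMNA* (−2.33), *PDS5A*, a regulator of cohesin release (−1.73), and *STAG2* (−1.67) were lowest among those whose groups did not overlap. In cattle–yak over the 6-month yak, *LMNA* and *STAG2* stood at 0.02 and −0.39 and were not called.

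The 18-month yak gave few calls. From 6 to 18 months edgeR called none of the 7 genes tested (*TERB2* was removed by the filter), 5 of which had an unadjusted p below 0.05, and it called 0.0202% of 14874 genes higher and 0.0471% lower. With library size alone it called 104 genes higher and 49 lower in place of 3 and 7. DESeq2 called 4 of the 8 higher, *SMC1B*, *REC8*, *STAG3* and *TERB1*, where it called 6.99% of 15486 genes higher and 5.14% lower. edgeR called the same 4 without 18-month library 1, where 8.7% of 15454 genes were higher and 8.08% lower, and 0 without library 2, where 4 had an unadjusted p below 0.05. Of the partner genes tested, 31 of 33, edgeR called 0, with 12 at an unadjusted p below 0.05, and DESeq2 called 3 higher and 1 lower.

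From 18 months to 4 years edgeR called none of the 8 genes (2 had an unadjusted p below 0.05), and over 16175 genes it called 0% higher and 0.0371% lower. DESeq2 called *SUN1* higher and *RAD21* lower, where it called 7.68% of 16420 genes higher and 12.2% lower. Without 18-month library 2, edgeR called all 6 genes of meiosis higher and *RAD21* lower, where 26.1% of 16377 genes were higher and 18.5% lower. The log2 fold changes were then 5.47 for *TERB2*, 3.86 for *TERB1*, 3.37 for *SMC1B*, 2.62 for *STAG3*, 1.59 for *SUN1*, 1.48 for *REC8* and −1.30 for *RAD21*. Of the 33 partner genes, 0 were called with library 2, where 12 had an unadjusted p below 0.05 and DESeq2 called 3 higher and 2 lower, and 13 higher and 4 lower without it.

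Cattle–yak and 18-month yak did not differ by the thresholds in any of the 8 genes with edgeR or DESeq2, none had an unadjusted p below 0.05 with either, and 3.45% of 15702 genes were called higher and 2.34% lower by edgeR. Without 18-month library 2, where 7.22% of 16139 genes were higher and 8.04% lower, *TERB2* was higher in cattle–yak (log2 fold change 4.58, edgeR's adjusted p = 0.0261). In that fit *SMC1B* was at 2.03 with a 95% interval of 0.65 to 3.40 (edgeR's adjusted p = 0.0506) and *TERB1* at 1.42 with an interval of 0.33 to 2.52 (edgeR's adjusted p = 0.0685), so that differences of several fold are within the intervals.

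The count per FPKM of a gene, which follows the effective length that RSEM assigned to it in a library, was almost constant. The group means of the 7 genes that could be tested spanned at most 0.0523 on the log2 scale, and 0 differed over the 4 groups after adjustment (exact permutation test, lowest adjusted p = 0.0532, for *TERB1*), while 2 had an unadjusted p under 0.05. Without 18-month library 2 the differences passed in 5 of the 7 genes at this small size. *RAD21*, *SMC3* and *SUN1* then had nearly the same span, 0.0191, 0.0190 and 0.0190. Each value was taken over a median of its library that all genes share, so these passes are not separate results on each gene.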

How the data were processed

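Ribo-seq libraries of testis from 4 groups of 3 animals were analysed. The authors used fastp for trimming, Bowtie2 and BLAST for discarding rRNA and further small RNA, STAR for alignment to the yak genome, for cattle–yak too, and RSEM for counting over ORFs. The deposited expected counts are whole numbers per gene, not normalized. The authors' FPKM scales them to gene length and library total. Tables of group means were not used, and the authors' fold change, p-value and FDR columns were not used.

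Genes were named by the symbols in the tables. The members, partner genes and marker lists were chosen with earlier results of these data known. Only the 6 libraries compared entered a test: filterByExpr, TMM scaling and the quasi-likelihood test of edgeR, adjusted by Benjamini-Hochberg over all genes (R 4.3.3, edgeR 4.0.16). A call required an adjusted p under 0.05 together with a log2 fold change of 1 or more in either direction. The SE is the log2 fold change over the square root of F. All members were named. SMC1A, STAG1, STAG2, SUN2, KASH5 and SYCP1 to SYCP3 were named whatever their values, and otherwise the 3 partner genes highest and the 3 lowest among those called without overlap; TERF1 was added after its values were seen. Ratios and relative levels, on log2(FPKM + 0.1) for the latter, were tested by two-sided exact permutation (Python 3.11.15, numpy 2.4.6, scipy 1.17.1). The tests were tested on simulated data. Alternatives were DESeq2 1.42.0, limma 3.58.1 on log2 FPKM, other scalings, no filter, all 12 libraries in 1 fit, a replicate block and each library left out. Each library is 1 animal, so that animal and preparation are not separated. Promoter and protein sequences were not used here.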

Additional observations from a re-analysis of the deposited data

How the results depend on the processing

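In cattle–yak against the 4-year yak, calls of the 8 members and of the partner genes stayed within 1.5 times the count in all alternatives except 1, the fit of all 12 libraries, with 2 members lower in place of 4. Leaving out a library gave 4 to 5 members lower, 1 higher, and 9 to 10 partner genes lower. Against the 6-month yak, 5 members were higher throughout, or 6 with limma, which added *RAD21*. Partner genes higher numbered 7 with all 12 libraries and 6 to 11 with a library left out, and those lower 1 to 2. The log2 fold change of *SMC3* turned to −0.14 and −0.11 without 6-month library 1 or cattle–yak library 1, in a range of −0.14 to 0.25. In the 4-year over the 6-month yak, 6 members were higher throughout, while the 1 member lower (*RAD21*) became 0 with library size alone and with limma on either pseudocount, and 0 to 1 with a library left out. *SMC3* turned to 0.26 with library size alone and to 0.33 and 0.34 with limma. The cause was not tested.

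From 6 to 18 months members higher, 0 at first, numbered 4 with DESeq2 and with all 12 libraries, 1 with limma on log2(FPKM + 0.1), and 0 to 4 with a library left out (4 without 18-month library 1). Partner genes higher numbered 3, 5 and 0 to 5 with DESeq2, all 12 libraries and a library left out, and lower 1, 1 and 0. From 18 months to 4 years, DESeq2 and the fit of all 12 libraries gave 1 member higher and 1 lower, and 3 and 4 partner genes higher and 2 and 3 lower. Leaving out a library, with the highest counts without 18-month library 2, gave 0 to 6 members higher and 0 to 1 lower, and 0 to 13 partner genes higher and 0 to 4 lower. In cattle–yak over 18 months a library left out gave 0 to 1 member and 0 to 1 partner gene higher, and limma on log2(FPKM + 0.1) 1 partner gene. The relative level passed in 3 to 7 members with a library left out and in 6 with 8 reference genes, and count per FPKM in 0 to 5. The 4 ratios passed in all alternatives run.

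The replicate numbers did not pair the samples: correlations of deviations between samples of the same number were −0.321 to 0.116. A replicate block gave 2 members higher from 6 to 18 months in place of 0, *SMC1B* and *STAG3*, and moved no other member count by over 1.5 times. Depth limits *TERB2*, *TERB1* and *REC8* most, with at most 6, 10 and 33 counts in a 6-month library.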
